A study of Mus musculus with 768 samples.

Results

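The genes described here are 7 matrix metalloproteinases (*Mmp2*, *Mmp3*, *Mmp9*, *Mmp11*, *Mmp13*, *Mmp14* and *Mmp19*) and 3 of their tissue inhibitors (*Timp1*, *Timp2* and *Timp3*). They were chosen by gene symbol, make up 10 of the 24490 mouse genes counted, and each had reads in at least 1 well. The study sorted single mesenchymal cells from mammary tumors of 14-week-old MMTV-PyMT mice (strain FVB/N-Tg(MMTVPyVT)634Mul/J), in which a mouse mammary tumor virus promoter drives the polyoma middle T antigen in mammary epithelium. Cells negative for EpCAM, CD45, CD31 and NG2 went into 384-well plates for Smart-seq2, with 1 plate and 1 tumor each (tumor 1 and tumor 2). Both tumors carry the transgene, there is no normal mammary tissue among the wells, and tumor and plate cannot be told apart. Of 768 wells, 727 with at least 10000 endogenous reads were used, 373 from tumor 1 and 354 from tumor 2.

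Matrix metalloproteinases are zinc enzymes that are made as inactive proenzymes and, once cut, digest proteins of the extracellular matrix. MMP14 is anchored in the cell membrane and, with a TIMP2 molecule bound to it, holds and activates pro-MMP2, so TIMP2 both inhibits and takes part in activation. MMP3 (stromelysin 1) and MMP13 (collagenase 3) are secreted enzymes whose genes are known to respond to AP-1 factors, and TIMP1, TIMP2 and TIMP3 block active sites, TIMP3 while bound to the matrix.

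*Mmp13* and *Mmp3* lie on the same strand of a cluster of 10 family genes on chromosome 9 (GRCm38, chr9:7272514-7283333 and chr9:7445822-7455975), 162488 bases apart with *Mmp12* and *Mmp1b* between them. Because both genes were at 0 in most mCAF-like wells and over 1000 RPKM in 13 each, the 150 bases before each annotated start are shown (RefSeq, GRCm38.p6, plus strand, chr9:7445672-7445821 for *Mmp3* and chr9:7272364-7272513 for *Mmp13*). Capitals mark exact matches to the AP-1 letters TGACTCA, the RUNX letters ACCACA and the TATA letters TATAAA, each searched on both strands.
Mmp3: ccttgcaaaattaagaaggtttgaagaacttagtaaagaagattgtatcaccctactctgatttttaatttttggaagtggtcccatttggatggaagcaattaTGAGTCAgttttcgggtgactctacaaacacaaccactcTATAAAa
Mmp13: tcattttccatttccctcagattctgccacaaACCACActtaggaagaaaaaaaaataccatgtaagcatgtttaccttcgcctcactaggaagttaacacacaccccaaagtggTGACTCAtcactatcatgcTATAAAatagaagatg
Both stretches hold 1 AP-1 match and 1 TATA match, and the *Mmp13* stretch also holds a RUNX match whose first base is at position -118 from the start. The AP-1 match begins at -46 in *Mmp3*, where it reads TGAGTCA, and at -35 in *Mmp13*. In windows of 300 bases (250 before to 50 after the start), 5.2% of 32851 mouse promoters hold the AP-1 letters, 16.8% the RUNX letters, 13.6% the TATA letters and 0.201% all 3. Such windows were given for 7 of the 10 genes. *Mmp14* held a RUNX match at -114, and the windows of *Mmp11*, *Timp1*, *Timp2* and *Timp3* held no exact match to the letters searched.

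Cell types were rebuilt by *t*-SNE and DBSCAN on genes other than *Mmp* and *Timp* genes and named by marker genes after the study's classes. They comprised 449 vascular (vCAF-like, *Rgs5*, *Higd1b*), 142 matrix (mCAF-like, *Dcn*, *Lum*), 39 cycling (cCAF-like, *Top2a*, *Birc5*) and 29 developmental (dCAF-like, *Scrg1*, *Trf*) cells. In tumors 1 and 2 these were 237 and 212 vCAF-like, 76 and 66 mCAF-like, 21 and 18 cCAF-like, and 9 and 20 dCAF-like wells. The other 68 wells stayed unnamed: 52 shallow wells led by *Wfdc18* and *Lcn2*, 6 led by hemoglobin genes, and 10 (1 of tumor 1 and 9 of tumor 2) of which 80% carried mCAF and 60% dCAF markers. Of the 52 shallow wells, 75% carried vCAF, 15.4% mCAF, 7.7% cCAF and 5.8% dCAF markers. Depth over the 727 wells ran from 10281 to 1190516 endogenous reads, with medians of 219264 and 198180 in tumors 1 and 2. The markers that would point to other cells were low in vCAF-like, mCAF-like and cCAF-like wells, with a mean summed RPKM of 12.85 or less for 6 epithelial genes. Epithelial reads were found in 26 of 76 and 22 of 66 mCAF-like wells, and in 35 of 237 and 46 of 212 vCAF-like wells. The highest summed level among these was 291 RPKM, in a vCAF-like well of tumor 2. In dCAF-like wells all 6 epithelial markers had reads, and their summed level averaged 1119 RPKM in tumor 1 and 392 in tumor 2, with medians of 111 and 30.2; the part of this in the dCAF-like results below was not tested. Neutrophil markers had reads in 5 of 20 dCAF-like wells of tumor 2, with a mean summed level of 74.1 RPKM and a highest of 1247, and in none of tumor 1, against means of 2.71 or less in the other named classes, and their part in the dCAF-like results was not tested either. Leukocyte markers reached at most a mean of 10.8 RPKM in a named class and endothelial markers 1.22.

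*Mmp2*, which encodes gelatinase A, and *Mmp14*, which encodes its membrane-bound activator, were read in every mCAF-like well of both tumors. Levels are given as RPKM, reads scaled to transcript length and to the mapped reads of the well, which can be compared between genes. In mCAF-like wells of tumor 1 the level of *Mmp2* ran from 134 to 3174 RPKM with a median of 1037, and in tumor 2 from 95.7 to 2863 with a median of 876. In vCAF-like wells *Mmp2* was read in 75.9% of wells of tumor 1 (95% exact binomial interval 70.0 to 81.2) and 83.0% of tumor 2 (77.3 to 87.8), with median levels of 8.71 and 52.2 RPKM. The lowest mCAF-like well thus lay above the vCAF-like median in both tumors, while the highest vCAF-like wells (1386 and 629 RPKM) lay within the mCAF-like range. As the mean of log2(RPKM + 1) per tumor, *Mmp2* stood at 9.87 ± 0.11 (SD, n = 2 tumors) in mCAF-like, 6.88 ± 1.45 in dCAF-like, 4.34 ± 0.47 in vCAF-like and 3.99 ± 0.12 in cCAF-like wells. The order of the vCAF-like and cCAF-like means lay within the spread of the tumors, and the mCAF-like mean stood above all others. Single wells overlapped, with the highest dCAF-like wells at 1263 and 1371 RPKM in tumors 1 and 2, within the mCAF-like range. Of all *Mmp2* reads, 74.1% were in mCAF-like wells.

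*Mmp14* was read in nearly every cell of every class. Median levels in tumors 1 and 2 were 667 and 625 RPKM in mCAF-like, 261 and 276 in vCAF-like, 235 and 200 in cCAF-like, and 142 and 177 in dCAF-like wells. All classes had reads of *Mmp14* in 94.4% to 100% of wells per tumor, and the classes differed in its level. Reads of *Mmp2*, *Mmp14* and *Timp2*, the members of the activating complex, occurred together in 100% of mCAF-like wells in both tumors and in 72.6% and 78.3% of vCAF-like wells. In wells of at least 50000 reads, thinned to that number, the shares were 100% and 98.5% of mCAF-like wells and 54.7% and 67.6% of vCAF-like wells. In dCAF-like wells the 3 genes were read together in 9 of 9 wells of tumor 1 and 18 of 20 of tumor 2.

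*Mmp3* and *Mmp13* behaved in another way, with most mCAF-like wells at 0 and a minority at very high levels. *Mmp13* was read in 33 of 76 mCAF-like wells of tumor 1 (43.4%, interval 32.1 to 55.3) and 23 of 66 of tumor 2 (34.8%, 23.5 to 47.6). *Mmp3* was read in 31 of 76 (40.8%, 29.6 to 52.7) and 18 of 66 (27.3%, 17.03 to 39.6). The level of *Mmp13* over both tumors was 0 in 86 wells, above 0 to 10 RPKM in 17, from 10 to 100 in 12, from 100 to 1000 in 14 and over 1000 in 13. For *Mmp3* the same bins held 93, 14, 12, 10 and 13 wells. Among wells with a read, the levels were spread across the whole range rather than around 1 value, with an SD of log2(RPKM + 1) of 3.82 for *Mmp13* and 3.92 for *Mmp3*, against 0.89 for *Mmp2* and 0.93 for *Mmp14* over all 142 wells. The highest mCAF-like wells had 6790 RPKM of *Mmp13* (8831 reads) and 11286 RPKM of *Mmp3* (6052 reads), above the highest *Mmp2* level in any well. Both genes were therefore measured through few cells: 5 wells held 60.7% of the *Mmp13* reads and 60.6% of the *Mmp3* reads of mCAF-like wells, against 11.2% for *Mmp2*.

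Wells with and without reads also differed in depth, in directions that varied. mCAF-like wells with *Mmp13* reads had medians of 309230 and 280910 endogenous reads in tumors 1 and 2, and those without 266720 and 226950. For *Mmp3* the medians were 266720 against 314610 in tumor 1 and 305300 against 206380 in tumor 2, and the part of depth in these shares was not tested beyond thinning. With wells of at least 50000 reads thinned to that number (74 of 76 and 66 of 66 mCAF-like wells), *Mmp13* was read in 35.1% and 25.8% of mCAF-like wells of tumors 1 and 2 and *Mmp3* in 32.4% and 21.2%. Thinned to 10000 reads, the shares were 32.9% and 15.2% for *Mmp13* and 23.7% and 15.2% for *Mmp3*. A level of at least 10 RPKM was reached in 32.9% and 21.2% of wells for *Mmp13* and 30.3% and 18.2% for *Mmp3*. The shares were higher in tumor 1 under each of these counts, and the intervals of the tumors overlapped for both genes. Intervals of shares cover only counting error over the wells of 1 tumor. Counting intervals of reads, given below, take reads as independent molecules, which reads without molecular identifiers are not.

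**Figure D1:**
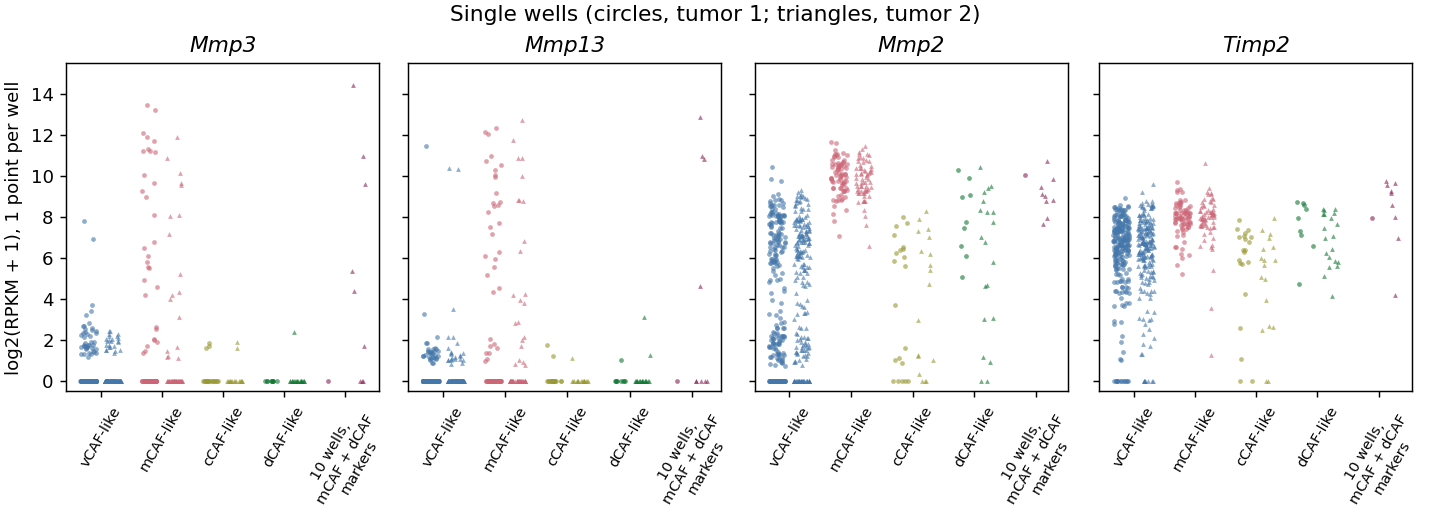
Level of *Mmp3*, *Mmp13*, *Mmp2* and *Timp2* in single wells by cell type and in the 10 wells of mixed markers, as log2(RPKM + 1), with circles for tumor 1 and triangles for tumor 2. mCAF-like wells are spread from 0 to 11286 RPKM for *Mmp3* and to 6790 RPKM for *Mmp13*, while the same wells all lie at 95.7 RPKM or more for *Mmp2*.

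In the other named classes, most wells with reads of either gene had a single read. In vCAF-like wells *Mmp13* was read in 57 of 449 wells, in 46 of them with 1 read, and *Mmp3* in 67 wells, in 49 with 1 read. The median level among these wells was 1.51 RPKM for *Mmp13* and 2.72 for *Mmp3*, and thinning to 50000 reads left shares of 3.42% and 3.38% for *Mmp13* and 8.12% and 3.86% for *Mmp3* in tumors 1 and 2. Median depths of vCAF-like wells were 203547 and 203868 reads. The exceptions were 3 vCAF-like wells with over 1000 RPKM of *Mmp13*, 1 in tumor 1 and 2 in tumor 2, and 5 wells held 98.1% of the *Mmp13* reads of this class. *Mmp3* passed 10 RPKM in 3 vCAF-like wells, all of tumor 1, with a highest level of 222 RPKM. cCAF-like wells had 5 reads of *Mmp3* and 4 of *Mmp13* in all, and dCAF-like wells had 2 and 3.

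The 10 unnamed wells with mCAF and dCAF markers held a large part of both transcripts, 40.8% of all *Mmp3* reads and 22.1% of all *Mmp13* reads. Nearly all of these reads lay in 4 wells of tumor 2. The first had 22052 RPKM of *Mmp3* (18360 reads) and 7462 RPKM of *Mmp13* (9233 reads), the highest level of either gene in any well. The second had 2041 RPKM of *Mmp3* and 2009 of *Mmp13*, the third had 20.4 and 1821, and the fourth had 768 of *Mmp3* and no *Mmp13* read. In the same 10 wells *Timp1* was low, with a median of 62.8 RPKM and a highest value of 309, and *Timp2* stood at a median of 473 RPKM. No *Mmp9* read was found in them.

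In mCAF-like wells, reads of *Mmp3* and *Mmp13* coincided in part. Tumor 1 had *Mmp13* reads in 45.2% of wells with *Mmp3* and 42.2% of those without, and tumor 2 in 55.6% and 27.1%. In tumor 1, 14 wells had reads of both, 17 of *Mmp3* only, 19 of *Mmp13* only and 26 of neither, an odds ratio of 1.13. In tumor 2 these were 10, 8, 13 and 35 wells, an odds ratio of 3.37. The odds ratio over all 142 wells was 1.83, and it was 1.47 after thinning to 50000 reads and 1.84 for a level of at least 10 RPKM. In tumors 1 and 2 it was 1.17 and 1.85 after thinning, and 1.13 and 3.57 for a level of at least 10 RPKM. Spearman's rho between the levels was 0.02 in tumor 1 and 0.27 in tumor 2, a description over wells of 1 tumor that share plate and depth range. Among the 13 mCAF-like wells with over 1000 RPKM of *Mmp3*, *Mmp13* was at 0 in 10 and over 1000 RPKM in 2. Among the 13 with over 1000 RPKM of *Mmp13*, *Mmp3* was at 0 in 7. Over all 142 mCAF-like wells, *Mmp13* was at 0 in 86 and *Mmp3* in 93.

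**Figure D2:**
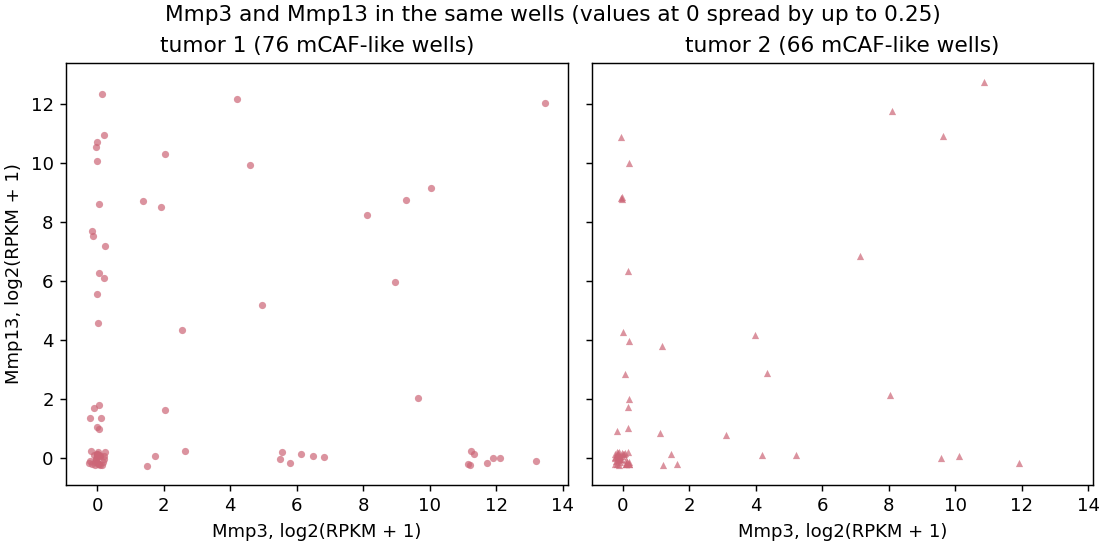
*Mmp3* (horizontal) against *Mmp13* (vertical) in single mCAF-like wells, as log2(RPKM + 1), with 1 panel for each tumor and values at 0 spread so that points do not cover each other. Wells lie along both axes and in the middle, and 2 of the 13 wells with over 1000 RPKM of *Mmp3* also pass that level for *Mmp13*.

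Rank correlations between the other genes were low. Over the 45 pairs of the 10 genes in mCAF-like wells, rho ran from -0.28 to 0.26 in tumor 1 and from -0.28 to 0.27 in tumor 2. *Mmp9* and *Mmp14* was the only pair at 0.2 or more in both tumors (0.26 and 0.21), and *Mmp11* and *Timp3* the only pair at -0.2 or less (-0.28 and -0.28). *Mmp9* was read in only 8 of 76 and 8 of 66 of these wells, and its other values were tied. *Mmp2* and *Mmp14*, both read in every well, had a rho of 0.11 and 0.03. mCAF-like wells had reads of 4.43 and 4.08 of the 7 proteases on average in tumors 1 and 2, against 2.89 and 2.995 in vCAF-like wells, and 2.82 and 2.88 of the 3 inhibitors against 2.82 and 2.85.

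*Mmp11* encodes stromelysin 3, which is activated inside the cell by furin. It was read in 93.4% and 77.3% of mCAF-like wells and 71.7% and 78.3% of vCAF-like wells, with medians of 96.1 and 69.5 RPKM against 49.9 and 57.9 RPKM. It was lower in cCAF-like wells, with medians of 2.28 and 10.97 RPKM, and was read in 4 of 9 and 9 of 20 dCAF-like wells. *Mmp19* was read in 55.3% and 56.1% of mCAF-like wells against 8.44% and 10.8% of vCAF-like wells, and its level among mCAF-like wells with a read had a median of 33.1 RPKM, without the extreme values of *Mmp3*. The *Mmp19* locus overlaps *Tmem198b* on the other strand, which had 3340 reads against 2985 of *Mmp19*, and reads of the 2 cannot be told apart where they overlap because Smart-seq2 libraries do not mark the strand.

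*Mmp9*, gelatinase B, is also known as a product of neutrophils and macrophages. It was read in 35 of 727 wells only, 15 vCAF-like, 16 mCAF-like, 2 cCAF-like and 2 unnamed wells. The vCAF-like wells were 2 of 237 in tumor 1 and 13 of 212 in tumor 2, and the mCAF-like wells 8 of 76 and 8 of 66. Wells with a read had medians of 42.6 RPKM in vCAF-like and 28.9 in mCAF-like wells, and the highest well had 479 RPKM. A read of a leukocyte marker was found in 4 of the 35 *Mmp9* wells (11.4%) and in 34 of the 692 other wells (4.91%), and a neutrophil marker in 1 of the 35 (2.86%) and in 15 of the 692 (2.17%). None of the 29 dCAF-like wells had an *Mmp9* read, which allows a share of wells with a read of up to 10.3% at 3 counts (11.9% as the exact binomial limit) and sets no limit on cells that express it.

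*Timp1* was read in nearly every well and set the mCAF-like and dCAF-like cells furthest apart among the inhibitors. Median levels in tumors 1 and 2 were 805 and 1218 RPKM in mCAF-like, 389 and 298 in cCAF-like, 216 and 273 in vCAF-like and 49.8 and 68.8 in dCAF-like wells. The highest dCAF-like well had 242 RPKM, below the lower quartile of mCAF-like wells in both tumors (505 and 748 RPKM). The deposited RPKM of *Timp1* implied transcript lengths of 640 to 878 bases between wells (first to 99th percentile), so a read was not worth the same level in every well. *Timp2* had medians of 250 and 256 RPKM in mCAF-like, 243 and 130 in dCAF-like, 104 and 101 in vCAF-like and 81.7 and 54.2 in cCAF-like wells. *Timp3* had no such order: medians were 125 and 125 in vCAF-like, 105 and 67.2 in cCAF-like, 73.7 and 94.1 in mCAF-like and 103 and 25.5 in dCAF-like wells. In dCAF-like wells of tumor 1 a single well held 5640 of 8339 *Timp3* reads, at 4120 RPKM.

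**Figure D3:**
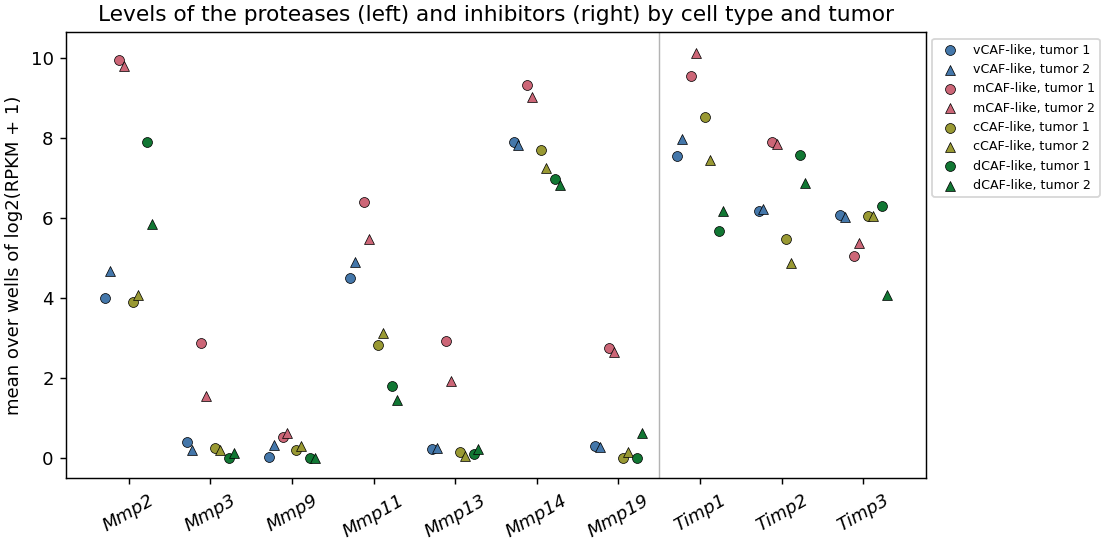
Mean over wells of log2(RPKM + 1) for each gene, cell type and tumor, with 1 point for each tumor. mCAF-like wells are highest for 9 of the 10 genes in both tumors, *Timp3* being the exception, and dCAF-like wells are lowest in both tumors for *Mmp3*, *Mmp9*, *Mmp11*, *Mmp14* and *Timp1*.

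To compare the classes with tumors as the replicates, reads were summed per tumor and cell type and tested over all genes with edgeR's quasi-likelihood test (Benjamini-Hochberg adjusted p under 0.05, 11715 genes tested, whose RPKM averaged 1 or more). The tumors are 2 in number. Each gene had 1 estimate of the spread between tumors, shared by all 4 cell types. A p-value therefore also carries the spread in the classes not compared. Cell types were built from the same cells, although not from these genes, and the comparisons below share libraries. In mCAF-like against vCAF-like cells, 5 of the 10 genes rose and none fell, where 5.29% of all genes were called, 2.79% as higher and 2.5% as lower. Library-scaled counts (CPM, TMM-normalised) of *Mmp2* were 4453 and 4040 in mCAF-like against 343 and 336 in vCAF-like libraries, a log2 change of 3.65 ± 0.24 (SE, adjusted p = 0.000934). *Mmp3* stood at 1223 and 427 against 3.82 and 0.741 CPM (8.49 ± 1.05, adjusted p = 0.00669), and *Mmp13* at 1219 and 1127 against 47.8 and 12.8 (5.27 ± 0.65, adjusted p = 0.00656). The inhibitors *Timp1* (1005 and 1402 against 295 and 382.5 CPM, 1.83 ± 0.30, adjusted p = 0.0187) and *Timp2* (1209 and 1313 against 506.5 and 502, 1.32 ± 0.24, adjusted p = 0.0272) rose by less. The libraries of the classes did not overlap for any of the 10 genes, called or not, and the share of all genes without overlap was not counted. The change of *Mmp13* was 6.46 without tumor 1 and 4.66 without tumor 2, and that of *Mmp3* 9.16 and 8.31, values with no test.

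*Mmp14* was at the threshold, with 2468 and 2124 against 943 and 962 CPM and a log2 change of 1.27 ± 0.28 (adjusted p = 0.0512, edgeR), and 7 of 11 alternatives called it as higher. *Mmp19* (78.3 and 71.5 against 5.60 and 4.07 CPM, log2 change 3.95 ± 1.60, adjusted p = 0.292), *Mmp9* (1.37 ± 0.93, adjusted p = 0.665), *Mmp11* (0.68 ± 0.40, adjusted p = 0.57) and *Timp3* (-0.25 ± 0.73, adjusted p = 0.994) did not pass. The median change of the 10 genes was 1.60 on the log2 scale and that of all genes tested -0.02. Without tumor 1 the change of *Mmp9* was 0.63 and without tumor 2 3.06. The *Mmp3* and *Mmp13* calls rest on the 10 wells with mixed markers being kept out of the dCAF-like libraries. With these wells counted as dCAF-like the log2 changes were 8.49 and 5.27 with adjusted p of 0.195 and 0.333, and with Leiden clusters they were 8.497 and 5.28 with adjusted p of 0.195 and 0.335. In a test of mCAF-like cells against all other wells, *Mmp3* was not called (2.32, adjusted p = 0.446), while *Mmp11* (0.96, adjusted p = 0.0232) and *Mmp19* (4.07, adjusted p = 0.000989) were, with *Mmp13* at 3.28 (adjusted p = 0.0422).

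In dCAF-like against vCAF-like cells, 1 gene rose and 4 fell, where 10.7% of all genes were called, 3.63% as higher and 7.05% as lower. *Mmp2* rose (1228 and 925 against 343 and 336 CPM, log2 change 1.67 ± 0.22, adjusted p = 0.00482). *Timp1* fell by 3.02 on the log2 scale (41.9 and 41.8 against 295 and 382.5 CPM, adjusted p = 0.00179) and *Mmp11* by 3.78 (42.3 and 16.8 against 340.5 and 462, adjusted p = 0.00307). The change of *Mmp11* was -4.79 without tumor 1 and -3.02 without tumor 2. *Mmp13* and *Mmp9* also fell (adjusted p = 0.00679 and 0.0255), from counts so low that the fitted change is no measure of size. For *Mmp13*, 3 reads stood against 3055 in vCAF-like libraries, a ratio of 65.3 in reads per library total (95% counting interval 22.3 to 317). As 5 vCAF-like wells held 98.1% of those reads, this ratio describes a few wells: 12.7% of vCAF-like and 10.3% of dCAF-like wells had a read, with medians of 1.51 and 1.45 RPKM among them. For *Mmp9*, 0 of 29 dCAF-like wells had a read against 15 of 449 vCAF-like wells (3.34%), 5 of which held 80.0% of the 1212 reads, so no fold is given. Of these reads, 203 were in 2 wells of tumor 1 and 1009 in 13 wells of tumor 2. The *Mmp9* call was lost with wells thinned to 50000 reads (adjusted p = 0.076). *Mmp14* (-0.75 ± 0.28), *Timp2* (0.57 ± 0.24), *Timp3* (0.50 ± 0.74), *Mmp19* (0.26 ± 1.46) and *Mmp3* (-2.99 ± 1.498) did not pass. The change of *Mmp3* was -0.68 without tumor 1 and -9.23 without tumor 2. With the 10 mixed wells counted as dCAF-like, the *Mmp3* and *Mmp13* changes turned to 9.43 and 4.95, with adjusted p of 0.116 and 0.26.

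Against mCAF-like cells, dCAF-like cells were lower in 7 of the 10 genes and higher in none, where 9.82% of all genes were called, 2.84% as higher and 6.97% as lower. These were *Timp1* (log2 change -4.85 ± 0.34, adjusted p = 0.000601), *Mmp11* (-4.46 ± 0.47, adjusted p = 0.00217), *Mmp14* (-2.02 ± 0.29, adjusted p = 0.00706), *Mmp2* (-1.98 ± 0.22, adjusted p = 0.00275), and the rarely read *Mmp3*, *Mmp13* and *Mmp9*. The ratio in reads per library total was 2249 for *Mmp3* (counting interval 622 to 18569) and 2018 for *Mmp13* (690 to 9784). As 5 mCAF-like wells held 60.6% of the *Mmp3* reads of the class, and 5 held 60.7% of its *Mmp13* reads, these ratios describe few wells. *Mmp9* had a read in 0 of 29 dCAF-like and 16 of 142 mCAF-like wells (11.3%), 5 of which held 76.9% of its mCAF-like reads. Without tumor 1 the change of *Mmp11* was -5.20 and without tumor 2 -3.98. *Timp2* (-0.75 ± 0.24, adjusted p = 0.104), *Mmp19* (-3.69 ± 1.60, adjusted p = 0.214) and *Timp3* (0.76 ± 0.74, adjusted p = 0.597) did not pass. Counting the 10 mixed wells as dCAF-like left 4 of the 7 calls, where 808 genes were called in place of 1150, with *Mmp3*, *Mmp13* and *Mmp14* no longer called, and the changes of *Mmp3* and *Mmp13* became 0.94 and -0.33.

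In cycling, cCAF-like against vCAF-like cells none of the 10 genes passed edgeR's test, where 0.154% of all genes were called, 0.145% as higher and 0.00854% as lower. At an unadjusted p under 0.05 the count was 4, where 1470 of all 11715 genes were, and DESeq2 called 2 of the 10 and 803 genes in all. The replicate block of the tumors called 1 gene in place of 18. The lowest adjusted p values were those of *Mmp13* (0.505 and 0.217 against 47.8 and 12.8 CPM, log2 change -6.31 ± 0.84, adjusted p = 0.0511) and *Mmp11* (67.8 and 73.5 against 340.5 and 462 CPM, -2.51 ± 0.43, adjusted p = 0.081). The *Mmp13* change rests on 4 cCAF-like reads and is no measure of size, and 5 vCAF-like wells held 98.1% of the vCAF-like reads. *Mmp13* was read in 7.69% of cCAF-like and 12.7% of vCAF-like wells, with medians of 1.37 and 1.51 RPKM among them. *Timp1* differed by 0.07 ± 0.29.

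**Figure D4:**
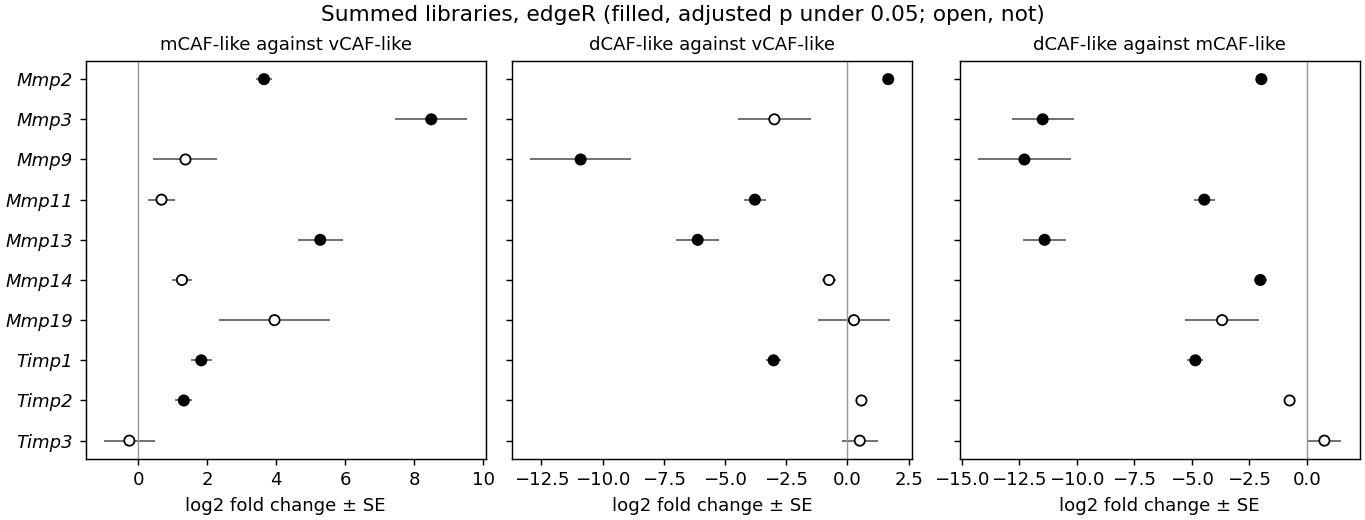
Log2 change with its standard error for each gene in 3 of the 4 comparisons of summed libraries, with filled points for genes with an adjusted p under 0.05. 5 genes pass in mCAF-like against vCAF-like, 5 in dCAF-like against vCAF-like and 7 in dCAF-like against mCAF-like cells, and the points of *Mmp3*, *Mmp9* and *Mmp13* in dCAF-like cells come from 0 to 3 reads.

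The balance of inhibitors to proteases was taken per well as log2 of the summed RPKM of the 3 *Timp* genes plus 1 over the summed RPKM of the 7 *Mmp* genes plus 1, so that values below 0 mean more protease than inhibitor transcript. Its median was -0.94 and -0.18 in mCAF-like wells of tumors 1 and 2, 0.58 and 0.41 in vCAF-like, 0.92 and 0.75 in cCAF-like, and 0.10 and -0.57 in dCAF-like wells. mCAF-like cells lay below vCAF-like and cCAF-like cells in both tumors, and dCAF-like cells changed sign between them. Proteases exceeded inhibitors in 62 of 76 mCAF-like wells of tumor 1 (81.6%, interval 71.0 to 89.5) and 37 of 66 of tumor 2 (56.1%, 43.3 to 68.3), against 34.6% and 39.2% of vCAF-like wells. They did so in 23.8% and 27.8% of cCAF-like wells, and in 3 of 9 and 14 of 20 dCAF-like wells. The balance was described per tumor and not tested, since the exact permutation test chosen for single values cannot go below p = 0.333 with 2 tumors a class.

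Both sides were higher in mCAF-like cells. The median summed protease level was 2360 and 1925 RPKM in mCAF-like against 422 and 456 in vCAF-like wells, and the median summed inhibitor level 1244 and 1596 against 628 and 648. *Mmp2* supplied 40.3% of the summed protease RPKM of mCAF-like wells, *Mmp14* 25.1%, *Mmp3* 14.0% and *Mmp13* 10.9%, and *Timp1* 72.4% of the inhibitor RPKM. The share of *Mmp3* was 19.2% in tumor 1 and 6% in tumor 2, where *Mmp13* (10.9%) and *Mmp11* (8.86%) supplied more. In vCAF-like wells *Mmp14* supplied 53.5%, *Mmp11* 27.3% and *Mmp2* 16.4% of the protease RPKM, and *Timp1* 49.02% and *Timp3* 34.3% of the inhibitor RPKM. Without *Timp3* the mean of the tumor medians in vCAF-like wells was -0.15 in place of 0.49; leaving out an inhibitor can only lower the balance, and the other inhibitors were not left out in turn.

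**Figure D5:**
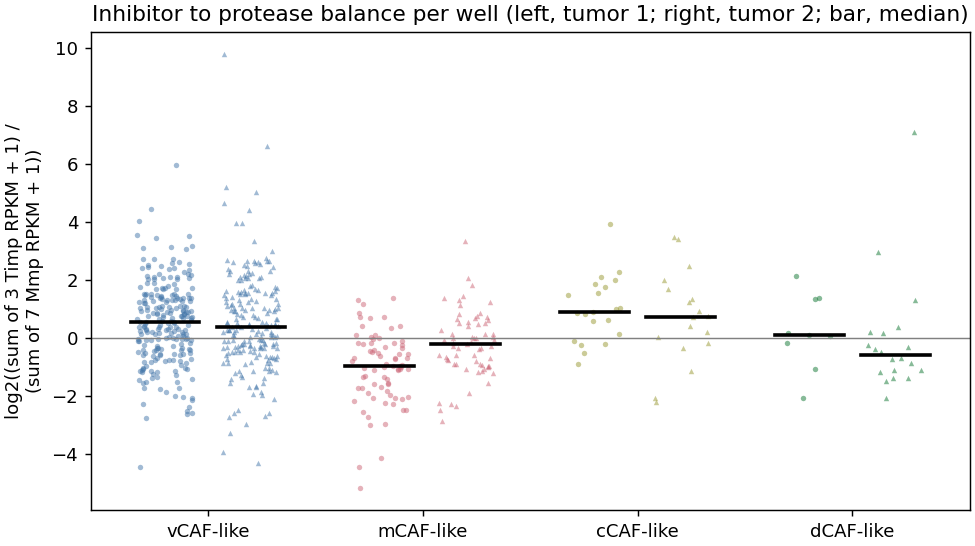
Inhibitor to protease balance of single wells on a log2 scale, by cell type, with tumor 1 on the left and tumor 2 on the right of each class and bars at the medians. The medians of mCAF-like wells lie at -0.94 and -0.18 and those of vCAF-like wells at 0.58 and 0.41.

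Splitting mCAF-like wells by *Mmp13* gave medians of the balance of -1.04 and -0.57 with reads against -0.92 and -0.13 without, in tumors 1 and 2. The mean log2(RPKM + 1) of *Mmp11* was 6.97 and 5.87 in *Mmp13* wells against 5.94 and 5.27 in the others. These values describe wells of the same tumors, and *Mmp13* is itself part of the balance.

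Other genes of the system came from lists of other metalloproteinases, other inhibitors, activation and clearance factors, and transcription factors known to act on *Mmp* promoters, 51 genes in all, of which 34 were tested. In mCAF-like against vCAF-like cells 3 rose and 1 fell, where 2.79% of all genes were called as higher and 2.5% as lower. At an unadjusted p under 0.05 there were 16 of the 34 and 1823 of all 11715 genes, and DESeq2 called 11 of the 34 and 1342 genes in all. The median log2 change of the 34 was 0.43 and that of all genes -0.02. *Lrp1*, the receptor that takes up protease and inhibitor complexes, rose by 2.03 ± 0.33 (adjusted p = 0.0183, edgeR), with means of 97.7 and 119 RPKM in mCAF-like and 26.96 and 33.4 RPKM in vCAF-like wells. *Mrc2*, a receptor that takes up collagen fragments, rose by 2.46 ± 0.41 (adjusted p = 0.0209), and *Runx2*, a factor known to act on the *Mmp13* promoter in bone cells, by 1.43 ± 0.31 (adjusted p = 0.0472). *Ets1*, a factor of the ETS family, fell by 1.89 on the log2 scale (SE 0.28, adjusted p = 0.013). Of 5 other metalloproteinases and 4 other inhibitors tested none passed edgeR's test in this comparison; of the unadjusted and DESeq2 counts above, 4 and 2 genes and 4 and 1 genes belong to these lists. In dCAF-like against vCAF-like cells 3 of the 34 rose and 8 fell, where 3.63% and 7.05% of all genes did. In dCAF-like against mCAF-like cells 2 rose and 10 fell, where 2.84% and 6.97% of all genes did.

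The genes whose levels followed *Mmp3* and *Mmp13* most closely were ranked by the lower of the Spearman correlations in the 2 tumors over mCAF-like wells, among 11324 genes. For *Mmp13* they included *Chst11*, a chondroitin sulfotransferase (0.38 and 0.52), *Spp1*, osteopontin (0.41 and 0.37), *Mmp10*, stromelysin 2 from the same gene cluster (0.35 and 0.35), and *Avpr1a*, a vasopressin receptor (0.35 and 0.41). *Chst11* was read in 73.2% of wells with *Mmp13* and 29.1% of those without, and *Mmp10* in 19.6% and 3.49%. For *Mmp3* they were *Ccbe1*, which takes part in VEGFC processing (0.40 and 0.36), *Podn*, a small leucine-rich proteoglycan (0.33 and 0.40), *Znrf1* (0.33 and 0.34), *Znf512b* (0.31 and 0.36) and *Atxn7l3b* (0.40 and 0.31). *Ccbe1* was read in 42.9% of *Mmp3* wells and 12.9% of the others. These are the highest values of all genes compared over wells that share plate and depth, and they are given as a description.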

How the data were processed

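Single cells were sequenced by Smart-seq2, single-end, on 2 plates of 384 wells. The authors aligned reads with STAR to mm10 and deposited read counts per gene and RPKM values (from rpkmforgenes, RefSeq genes) for each well, with 92 ERCC spike-ins. Counts were used as deposited for shares and tests, and the deposited RPKM for levels. The members and lists were chosen with earlier results of these data known.

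Cell types came from *t*-SNE (Rtsne 0.17, 30 components, perplexity 27, 50 runs, map of lowest cost) and DBSCAN (5 points) on 500 variable genes without *Mmp* and *Timp* genes. Of eps values from 3.1, the study's, to 1.9, the largest that gave all 4 names was taken (2.2); 3.1, 2.8 and 2.5 gave 3 names. A cluster was named where 50% of its wells carried 50% of fixed markers. The condition that left 10 wells with mCAF and dCAF markers unnamed was added after their markers were seen. The map moved with the computing threads, so components were rounded, after values of the genes had been seen on another map. Each well was sorted as 1 cell, and no doublet caller was run. The named genes were all 10 members, the list genes that passed in mCAF-like against vCAF-like cells, and the 5 genes most like *Mmp3* and *Mmp13*, of which 1 is not reported here.

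Counts summed per tumor and type (8 libraries of 2341448 to 50424083 reads) were tested in 1 fit with edgeR 4.0.16 (TMM, glmQLFit), with DESeq2 1.42.0 as an alternative. On simulated counts for mCAF-like against vCAF-like libraries over 11715 genes, 8% of genes changed by 2 and 55% of those changed by 4 on the log2 scale were called, with 1 false call. Libraries of 1 tumor were taken from 1 mouse, which pairs them. Their tumor differences correlated by 0.041 to 0.241 over 5857 genes.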

Additional observations from a re-analysis of the deposited data

How the results depend on the processing

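The alternative that counted the 10 wells of mixed markers with a named class was chosen after seeing the data. edgeR with ERCC totals called 970 genes in mCAF-like against vCAF-like cells, mCAF-like against all other wells 1895, DESeq2 1342, and an adjusted p of 0.001 left 16, against 620 as reported, and the members called were 3 with Leiden clusters (649 genes in all), 3 with the 10 wells counted as dCAF-like (611 genes) and 1 at 0.001. In dCAF-like against vCAF-like cells DESeq2 called 2331 genes and 0.001 left 118, with 0 members, and against mCAF-like cells 2289 and 86, with 2 members, and 4 members with Leiden clusters or the 10 wells. In cCAF-like against vCAF-like cells the 18 genes became 137 without a filter, 1 with the replicate block, 221 with ERCC totals, 60 with Leiden clusters, 42 with the 10 wells as dCAF-like, 161 after thinning, 803 with DESeq2 and 0 at 0.001, and members called became 2 without a filter and with DESeq2 and 1 with ERCC totals, Leiden clusters, the 10 wells or thinning. ERCC totals raised the median of all genes in mCAF-like against vCAF-like cells by 0.742 (log2), and by 0.568, 0.751 and -0.177 in dCAF-like and cCAF-like against vCAF-like and dCAF-like against mCAF-like cells. The replicate block changed no call of a member. Directions turned for *Timp3* in mCAF-like against vCAF-like cells with ERCC totals (0.49), and in dCAF-like against vCAF-like cells for *Mmp3* (9.43 with Leiden clusters and with the 10 wells), *Mmp13* (4.95 with both) and *Mmp19* (-0.53 with the block, -0.0091 with Leiden clusters, -0.0077 with the 10 wells). In cCAF-like cells they turned for *Mmp2* (0.055) and *Mmp14* (0.29) with ERCC totals and *Timp1* (-0.022) with *Mmp* and *Timp* genes in the clustering, and in dCAF-like against mCAF-like cells for *Mmp3* (0.94 with both). Of these, only *Mmp13* against vCAF-like and *Mmp3* against mCAF-like cells had passed. Leaving out each tumor gave values with no test. Changes then ran from -9.78 to 1.46 for *Mmp19* and from -1.41 to 1.20 for *Timp3* in dCAF-like against vCAF-like cells, from -1.39 to 1.71 for *Timp3* in dCAF-like against mCAF-like cells, and from -1.75 to 0.30 for *Mmp9* and from -0.44 to 0.52 for *Timp1* in cCAF-like against vCAF-like cells. The share of mCAF-like wells with *Mmp13* was 30.45% thinned to 50000 reads, 24.02% thinned to 10000 and 27.05% at 10 RPKM or more, and that with *Mmp3* 19.4% thinned to 10000 and 24.2% at 10 RPKM or more, as means of the tumors. The balance became 0.28 in vCAF-like and 0.054 in dCAF-like wells as a ratio of sums, and -0.15, 0.46 and -0.94 in vCAF-like, cCAF-like and dCAF-like wells without *Timp3*, and ran from -0.57 to 0.10 in dCAF-like wells with each tumor left out. Where no cause is given, the cause was not tested. *Mmp3* and *Mmp13* rest on 5 reads or fewer in cCAF-like and in dCAF-like cells.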
